A study of Mus musculus with 9 samples.

Results

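The glucocorticoid receptor gene Nr3c1 and 4 genes long used as readouts of that receptor, Sgk1, Tsc22d3, Fkbp5 and Per1, were followed in mouse regulatory T cells given IL-2 for 4 hours. They were chosen by symbol, 5 of the 23992 gene symbols in the count tables, and each symbol is represented by its most-read RefSeq transcript. The genes were named by symbol, and read totals served only to pick the transcript. All 5 were detected in every library and passed the filter on low values described below. In these cells Sgk1 and Fkbp5 were higher after IL-2, by 3.03-fold and 1.74-fold with WT IL-2. Nr3c1, Tsc22d3 and Per1 were lower, by 1.51-fold, 1.45-fold and 1.35-fold, the fall of Per1 being the least firm.

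The glucocorticoid receptor is a nuclear receptor that waits in the cytosol in a complex with HSP90, co-chaperones and an immunophilin. When a glucocorticoid such as corticosterone binds, the receptor enters the nucleus, sits on DNA palindromes called glucocorticoid response elements, and raises or lowers the transcription of nearby genes. T cells, regulatory T cells among them, carry the receptor, and glucocorticoids damp inflammatory T cell responses. None of the 4 target genes reads the receptor alone: Sgk1 also answers to growth factors and osmotic stress, Tsc22d3 to FOXO factors, and Per1 to the circadian clock and to cAMP. The labels name no glucocorticoid among the treatments, and hormone in the medium was not analysed here.

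The cells were Foxp3GFP+ Tregs of BALB/c mice, and every group, the control included, carried a transduced orthogonal IL-2 receptor beta chain (oIL-2Rβ) with an hEGFR tag, used for magnetic isolation. All were first stimulated for 48 hours with CD3/CD28 beads and 1000 IU/mL hIL-2, isolated, and kept overnight with no IL-2. They then had 4 hours without IL-2, with wild-type (WT) IL-2 at 20000 IU/mL, or with ortho IL-2, a form of the cytokine engineered to pair with the orthogonal chain, at 2000000 IU/mL. Each group had 3 libraries, all from total RNA of cells whose source is given as spleens. The cells were transduced and activated in culture, so they are a model of expanded Tregs rather than of Tregs taken straight from the animal. The growth protocol in the labels describes a co-culture assay with other T cells, so the steps above rest on the treatment protocol. Whether libraries of one group stem from different cultures or mice is not stated in the labels. Each p-value below therefore speaks for the scatter of these samples alone, and that scatter may be technical.

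The libraries held between 16581624 and 58182828 reads in genes, counted over the transcripts taken. A count of 3 reads, taken as the floor, was thus worth between 0.0516 and 0.181 CPM. CPM stands for the gene's reads scaled to the depth of the library. All 10 T cell and Treg markers examined were tested, and their summed level was 7409 to 7466 CPM in the controls, 10490 to 10570 CPM after WT IL-2 and 10390 to 10560 CPM after ortho IL-2. That rise was carried by Il2ra, the IL-2 receptor alpha chain, at 1182 to 1208 CPM in the controls and 4914 to 5059 after WT IL-2; of the 10, 3 were called higher and 6 lower in each comparison. Few markers of other cells passed the filter: 1 of the 10 for B cells, 1 of the 12 for myeloid cells, 2 of the 9 for CD8 T or NK cells, and 2 of the 15 for red cells, platelets or stroma, among which Gp9 had no read anywhere. That last list summed to 279 to 293 CPM in the controls, 235 to 246 after WT IL-2 and 235 to 250 after ortho IL-2, nearly all of it Pecam1, while Epcam stood at 1.99 to 3.34, 14.6 to 16.5 and 13.8 to 14.3 CPM. The CD8 T and NK list summed to 18.5 to 18.8, 22.1 to 25.2 and 23.2 to 25.5 CPM, and the B cell list to 7.12 to 7.49, 5.58 to 6.49 and 6.79 to 7.14 CPM. The summed myeloid markers stood at 14.2 to 15.9 CPM in the controls against 9.36 to 10.7 after WT IL-2 and 9.59 to 10.3 after ortho IL-2. The part of these lists in the results below was not tested. The share of reads that fell outside the transcripts taken for each gene also moved with the groups, being 38.9 to 43.3% in the controls, 29.1 to 34.9% after WT IL-2 and 25.7 to 33% after ortho IL-2. Its part was not tested beyond a fit with that share as a covariate, whose effect on Per1 is given with that gene.

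The 10702 genes with an RPKM (reads scaled by transcript length and by depth) of 1 or more in any 3 of the 9 libraries were tested. Counts were tested with edgeR's quasi-likelihood test, and a gene was called when its Benjamini-Hochberg adjusted p over all tested genes was below 0.05. IL-2 moved a large part of the transcriptome: WT IL-2 against no IL-2 called 47.9% of tested genes (2675 higher and 2448 lower) and ortho IL-2 against no IL-2 called 56.0% (3054 higher and 2937 lower). All 5 members were called in both comparisons, 2 higher and 3 lower, and none of the 5 overlapped between controls and either cytokine group on the CPM scale, as 58.8% of tested genes with WT and 66.1% with ortho IL-2 did not. With about every other gene called, this count must be read against 25.0% of genes called higher and 22.9% called lower with WT IL-2, and 28.5% and 27.4% with ortho IL-2. Both comparisons use the same no IL-2 libraries, so their values are set side by side and are not independent of each other. Between the forms of IL-2, edgeR called none of the 10702 genes, 149 had an unadjusted p below 0.05, and DESeq2 also called 0.

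Response elements near the members' starts were looked for in RefSeq promoter windows of the GRCm38.p6 build, each 300 bases long, from 250 before to 50 after a transcript start. Of the 5 members, 4 matched an entry, all but Nr3c1. The full palindrome searched, AGAACA and TGTTCT with any 3 bases between them on either strand, was in 3 of 32851 windows (0.00913%), those of Acnat2, Gm35041 and Sgk1, and Acnat2 had at most 9 reads in a library. A single arm of it, AGAACA on either strand, was in 19% of windows. The E-box CACGTG, bound by clock factors, was in 7.15%, the cAMP response element TGACGTCA in 1.79%, the FOXO site TGTTTAC in 3.65% and the STAT site TTCNNNGAA in 8.3%. The 250 bases before the start are printed for the Sgk1 window with the palindrome, for the window of the Sgk1 transcript taken here, and for the Fkbp5, Per1 and Tsc22d3 windows with an E-box or a single arm. Sequences run 5′ to 3′ along the gene's strand, and capitals mark matches to the searched motifs.
Sgk1, chr10:21993640-21993889, plus strand: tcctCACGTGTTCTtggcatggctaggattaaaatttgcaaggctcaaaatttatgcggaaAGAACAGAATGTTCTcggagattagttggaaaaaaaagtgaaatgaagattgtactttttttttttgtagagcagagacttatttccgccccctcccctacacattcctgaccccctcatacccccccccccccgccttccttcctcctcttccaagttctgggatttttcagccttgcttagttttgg
Sgk1, chr10:21994416-21994665, plus strand: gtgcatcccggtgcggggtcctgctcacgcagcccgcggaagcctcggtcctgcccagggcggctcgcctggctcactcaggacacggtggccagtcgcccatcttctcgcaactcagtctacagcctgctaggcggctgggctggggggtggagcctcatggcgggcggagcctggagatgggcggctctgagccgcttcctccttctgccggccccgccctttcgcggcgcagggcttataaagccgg
Fkbp5, chr17:28486150-28486399, minus strand: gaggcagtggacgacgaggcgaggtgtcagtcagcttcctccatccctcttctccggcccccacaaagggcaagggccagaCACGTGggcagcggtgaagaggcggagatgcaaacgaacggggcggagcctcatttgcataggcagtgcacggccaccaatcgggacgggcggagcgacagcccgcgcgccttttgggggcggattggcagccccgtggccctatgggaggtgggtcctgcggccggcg
Per1, chr11:69098699-69098948, plus strand: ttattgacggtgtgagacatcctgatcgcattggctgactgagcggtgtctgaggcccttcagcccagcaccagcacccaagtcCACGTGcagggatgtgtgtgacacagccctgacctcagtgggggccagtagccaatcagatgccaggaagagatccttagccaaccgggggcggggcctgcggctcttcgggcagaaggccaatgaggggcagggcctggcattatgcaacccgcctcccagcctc
Tsc22d3, chrX:140600523-140600772, minus strand: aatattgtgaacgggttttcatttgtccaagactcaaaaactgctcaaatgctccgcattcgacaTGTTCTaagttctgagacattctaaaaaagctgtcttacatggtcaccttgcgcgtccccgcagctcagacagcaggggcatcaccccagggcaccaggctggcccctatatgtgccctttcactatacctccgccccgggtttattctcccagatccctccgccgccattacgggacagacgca
In the first Sgk1 window the palindrome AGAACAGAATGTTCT began 189 bases before the start, and an E-box 246 bases before it overlapped a further single arm by 2 bases. The other Sgk1 window, that of the transcript with the most reads, held none of the motifs searched. The E-box stood 169 bases before the Fkbp5 start and 166 before the Per1 start, and the single arm 185 bases before the start of the Tsc22d3 window. No Tsc22d3 window starts within 50 bases of a counted Tsc22d3 transcript, so this window is not that of the transcript taken. The STAT site was matched 223, 207 and 210 bases before another start each of Sgk1, Tsc22d3 and Per1, in windows not printed. A match is a string of letters, not a bound site, and windows without a match say nothing about the factors. The palindrome window belongs to an Sgk1 transcript whose reads beyond those of the transcript with the fewest were 0 in the 3 no IL-2 libraries together, 1 with WT and 12 with ortho IL-2. The same sum for the transcript taken here, the largest by the way it was picked, was 38, 149 and 200 reads. Of these, WT IL-2 replicate 1 gave 96 and ortho IL-2 replicate 3 gave 112, and without these libraries the sums were 53 and 88. All reads of that transcript were 392 to 878 a library without IL-2, 2632 to 3326 with WT and 1782 to 4890 with ortho IL-2. Raw sums therefore also follow the gene's level and the depth. The 6 Sgk1 transcripts share nearly all their reads, the lowest total being 98.1% of the highest, so few reads tell their starts apart.

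Nr3c1 (chromosome 18, 39410545 to 39519421, minus strand, mouse GRCm38 with GENCODE M21) encodes the receptor itself. Its level was 565, 569 and 562 CPM in the no IL-2 libraries, 337, 392 and 395 CPM with WT IL-2, and 357, 375 and 337 CPM with ortho IL-2. The lowest library without IL-2 stood well above the highest with either cytokine, and the 3 control libraries were close together (565 ± 3.34 CPM, SD, n = 3, against 374 ± 32.7 and 356 ± 19.0). WT IL-2 lowered Nr3c1 by a log2 change of -0.59 (SE 0.066, 95% interval -0.74 to -0.45, adjusted p = 4.98e-05 by edgeR's quasi-likelihood test), or 1.51-fold. With ortho IL-2 the log2 change was -0.67 (SE 0.066, adjusted p = 2.24e-05 by edgeR), or 1.59-fold lower. These are levels over whole samples, in which fewer cells with the transcript and less of it per cell cannot be told apart. The WT and ortho groups overlapped, and the interval of their difference was -0.22 to 0.07 (log2). On the deposited RPKM values the drop was smaller, at -0.38 with WT and -0.38 with ortho IL-2 on the log2(RPKM + 1) scale, and still called by limma.

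**Figure D1:**
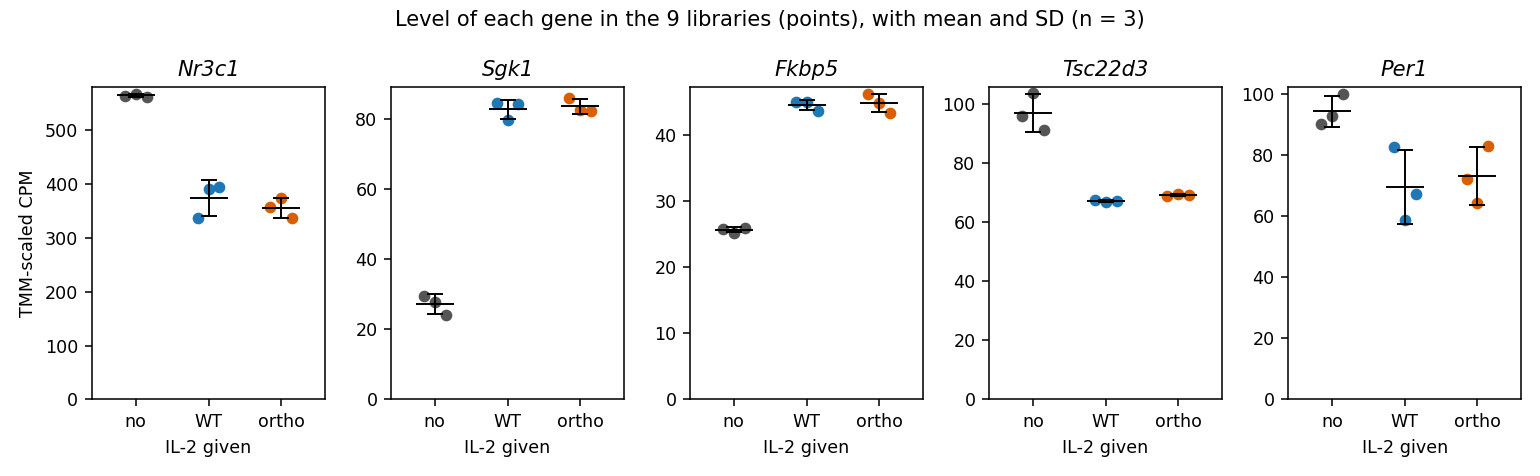
TMM-scaled CPM of Nr3c1, Sgk1, Tsc22d3, Fkbp5 and Per1 in each of the 9 libraries, in 1 panel a gene, with points for libraries and bars for the mean and SD of 3. Sgk1 and Fkbp5 sit higher with both forms of IL-2 and Nr3c1 and Tsc22d3 lower, with no overlap with the no IL-2 libraries, while the Per1 libraries given IL-2 spread from 58.8 to 83.2 CPM under controls at 90.4 to 100.2 CPM.

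Sgk1 (chromosome 10, 21882184 to 21999903, plus strand) encodes a kinase of the AGC family, switched on through mTORC2 and PDK1, that acts on ion channels, on the ubiquitin ligase NEDD4L and on FOXO factors, and that in T cells is known for its part in the balance between Th17 cells and Tregs. It had 29.6, 27.9 and 24.0 CPM without IL-2, 84.5, 79.7 and 84.2 CPM with WT IL-2, and 86.0, 82.7 and 82.2 CPM with ortho IL-2. Every library given either cytokine stood above every control, and the libraries of the cytokine groups interleaved. It rose 3.03-fold with WT IL-2 (log2 change 1.60, SE 0.070, 95% interval 1.44 to 1.76, adjusted p = 1.02e-07 by edgeR), the largest change among the 5 members. With ortho IL-2 it rose 3.07-fold (log2 change 1.62, SE 0.070, adjusted p = 9.18e-08 by edgeR). The difference between the forms had an interval of -0.14 to 0.16 (log2).

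Fkbp5 (chromosome 17, 28399094 to 28517527, minus strand) encodes FKBP51, an immunophilin that joins the HSP90 complex and lowers the receptor's affinity for hormone, and whose gene the receptor induces, a short feedback loop. Its level was 25.7, 25.2 and 25.9 CPM without IL-2, 44.9, 44.9 and 43.5 CPM with WT IL-2, and 46.1, 44.8 and 43.3 CPM with ortho IL-2. Within each group the libraries lay within 3 CPM of each other, and the controls stood far below the rest. Fkbp5 rose 1.74-fold with WT (log2 change 0.80, SE 0.048, adjusted p = 7.63e-07 by edgeR) and 1.75-fold with ortho IL-2 (log2 change 0.80, SE 0.048, adjusted p = 7.06e-07 by edgeR). The interval of the difference between the forms was -0.10 to 0.11 (log2). The locus overlaps 4 annotated noncoding genes on both strands, whose reads cannot be told apart from those of Fkbp5 because strand use in the counting is not given in the sources used here.

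Tsc22d3 (chromosome X, 140539528 to 140600659, minus strand) encodes GILZ, a leucine zipper protein that restrains NF-κB and AP-1, is raised by glucocorticoids, and in cultured T cells is also known to rise when IL-2 is withdrawn. It had 96.0, 103.8 and 91.2 CPM without IL-2, 67.5, 66.8 and 67.2 CPM with WT IL-2, and 68.8, 69.5 and 69.2 CPM with ortho IL-2. The controls were the most spread and all stood above the 6 libraries given IL-2, whose SD was 0.369 CPM within the WT group and 0.388 within the ortho group. The gene fell 1.45-fold with WT (log2 change -0.53, SE 0.051, adjusted p = 1.84e-05 by edgeR) and 1.40-fold with ortho IL-2 (log2 change -0.49, SE 0.051, adjusted p = 3.21e-05 by edgeR). All ortho libraries lay just above all WT libraries, as holds for 4.65% of tested genes in either direction, but the difference was 0.04 on the log2 scale with an interval of -0.07 to 0.16 and adjusted p = 0.909 by edgeR. On log2(RPKM + 1) the fall was -0.30 with WT IL-2 and remained called, and with ortho IL-2 it was -0.20 with adjusted p = 0.0534 by limma, so this call is lost on that scale.

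Per1 (chromosome 11, 69095217 to 69109960, plus strand) encodes a repressor of the circadian clock and is an immediate target of the receptor. Its level was 90.4, 92.8 and 100.2 CPM without IL-2, 82.9, 58.8 and 67.2 CPM with WT IL-2, and 72.3, 64.4 and 83.2 CPM with ortho IL-2. The controls all stood above the other libraries, but the spread within the cytokine groups (SD 12.2 and 9.43 CPM, n = 3 each) was the widest relative to the mean among the members. The fall was 1.35-fold with WT (log2 change -0.44, SE 0.12, adjusted p = 0.0159 by edgeR) and 1.28-fold with ortho IL-2 (log2 change -0.36, SE 0.12, adjusted p = 0.0323 by edgeR). These are the least firm calls of the 5. On log2(RPKM + 1) the groups overlapped and neither change was called (-0.22, adjusted p = 0.205, and -0.087, adjusted p = 0.599, both by limma). When the share of reads outside the transcripts taken for each gene entered the fit as a covariate, again neither change was called. The values were then -0.56 (adjusted p = 0.101 by edgeR) and -0.52 (adjusted p = 0.232 by edgeR). With offsets for GC content they were larger, at -0.64 and -0.66, and called. Leaving out no IL-2 replicate 3 ended the WT call (-0.40, adjusted p = 0.0563 by edgeR), and the ortho call held only without ortho IL-2 replicate 3 (-0.46, adjusted p = 0.0151 by edgeR), being lost without each of the other 5 libraries in turn, at -0.28 to -0.39.

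**Figure D2:**
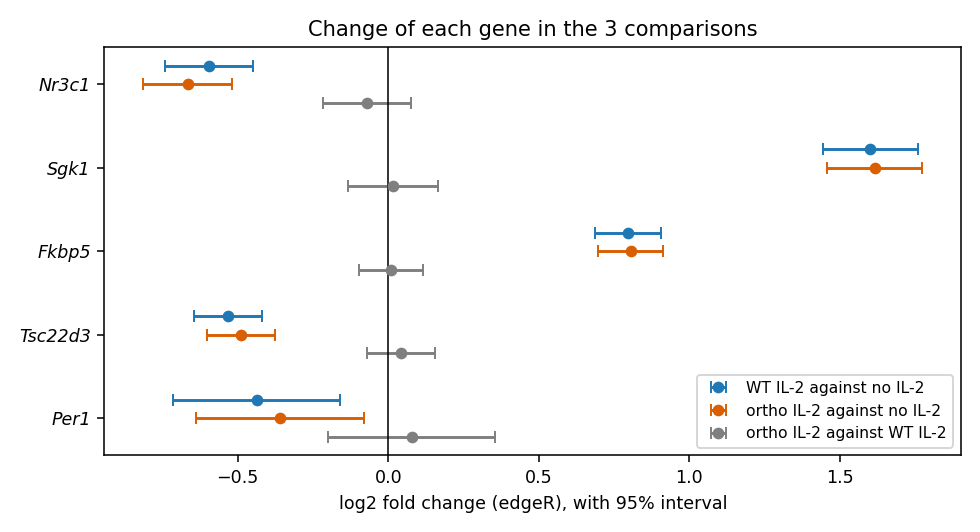
Log2 fold change of each member with its 95% interval, for WT IL-2 and ortho IL-2 against no IL-2 and for ortho against WT IL-2. The values of both forms against no IL-2 lie close together, from 1.60 and 1.62 for Sgk1 to -0.59 and -0.67 for Nr3c1, and the ortho against WT intervals all include 0.

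Levels were compared between the members on the RPKM scale, which allows for transcript length. Without IL-2 the order was Nr3c1 (52.4 RPKM, above 93.2% of tested genes), Tsc22d3 (28.9), Per1 (11.9), Sgk1 (6.47) and Fkbp5 (3.86 RPKM, above 29.6%), and no neighbours in that order overlapped. With WT IL-2 Sgk1 reached 22.9 RPKM, overlapping Tsc22d3 at 23.2, above Per1 at 10.2 and Fkbp5 at 7.78, and Nr3c1 remained highest at 40.2. With ortho IL-2 the order was the same, with Tsc22d3 at 24.9 and Sgk1 at 24.2 RPKM again overlapping. The tested genes whose log2 CPM followed each member most closely over the 9 libraries were Cd28 for Nr3c1 (Pearson r 0.999), Nfe2l1 for Sgk1 (0.999), Cd99l2 for Tsc22d3 (0.995), Lif for Fkbp5 (0.999) and Atg2a for Per1 (0.994). Smc6 and Jak2 came next for Nr3c1 (0.999 and 0.999), Rrp1b and Nfkbiz for Sgk1 (0.998 and 0.998), Gypc and Itga2 for Tsc22d3 (0.995 and 0.995), Car12 and Cndp2 for Fkbp5 (0.999 and 0.999), and Fbxl12 and Brpf3 for Per1 (0.991 and 0.988). These are descriptions: the 9 points fall into 3 groups and share their libraries, so high values are common among the many genes that move with IL-2.

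Close relatives of the members did not all move the way the member did. Fkbp4, which encodes FKBP52, the immunophilin that favours the receptor's entry into the nucleus, went from 33.1 CPM without IL-2 to 46.3 with WT and 47.7 with ortho IL-2 (log2 change 0.48 and 0.53, adjusted p = 8.67e-05 and 4.67e-05 by edgeR). Per2 rose from 11.9 to 19.8 and 19.5 CPM (0.73 and 0.71, adjusted p = 7.80e-06 and 9.33e-06 by edgeR) and Per3 from 14.4 to 28.7 and 29.0 CPM (1.00 and 1.02, adjusted p = 1.09e-05 and 9.65e-06 by edgeR). Both clock repressors thus differed in direction from Per1 in the same libraries, though the Per1 calls were the least firm of the members and its groups overlapped on the RPKM scale. Sgk3, a kinase recruited to endosomes, had 32.6, 37.1 and 32.8 CPM in the no, WT and ortho groups and was not called (log2 changes 0.19 and 0.01), though it was called higher on the RPKM scale and with GC offsets. Sgk2 had at most 1 read in a library.

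The TSC22 relatives of Tsc22d3 were mixed. Tsc22d4 rose from 107 CPM to 146 with WT and 154 with ortho IL-2 (log2 change 0.45 and 0.53, adjusted p = 0.00345 and 0.00118 by edgeR), calls lost in the fit with the covariate (adjusted p = 0.194 and 0.237 by edgeR). Tsc22d2 was 48.8 CPM without IL-2, 42.9 with WT and 39.0 with ortho IL-2, called in the ortho comparison (-0.32, adjusted p = 0.00442 by edgeR) but not in the WT comparison (-0.19, adjusted p = 0.0582 by edgeR). DESeq2, and the fit without WT IL-2 replicate 3, called it with WT IL-2 too, the ortho call is lost on the RPKM scale and with the covariate, and the forms of IL-2 did not differ by the test (adjusted p = 0.909 by edgeR). The Tsc22d1 transcript taken here rose from 15.2 to 22.8 and 22.7 CPM (0.58 and 0.58, adjusted p = 0.000589 and 0.000564 by edgeR). With the reads of all its transcripts summed the changes were 0.10 and 0.09 and not called (adjusted p = 0.311 and 0.340 by edgeR). That sum counts reads shared between its transcripts more than once, so it does not give the change of the gene as a whole.

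**Figure D3:**
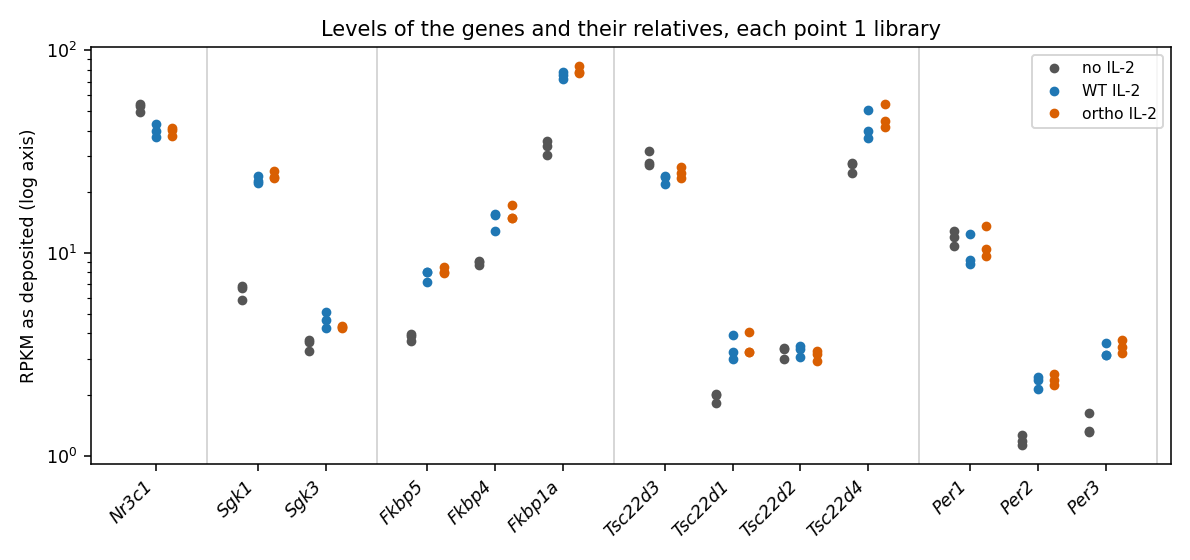
RPKM as deposited, on a log axis, of the members and their relatives, grouped by family, with 1 point a library and colours for no IL-2, WT IL-2 and ortho IL-2. Per2 and Per3 are higher in all 6 libraries given IL-2 than in the controls, from means of 1.19 and 1.42 RPKM, whereas the Per1 libraries of the 3 groups overlap on this scale.

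The machinery that holds and reads the receptor was described through lists of known genes, given by counts and medians beside all tested genes (median log2 change 0.01 in both comparisons, 47.9% and 56.0% called). On the log2(RPKM + 1) scale all tested genes split into 4450 called higher and 870 lower with WT IL-2, and 5590 and 918 with ortho IL-2. Of the 16 receptor chaperones and co-chaperones, all tested, 9 rose and none fell with WT IL-2, and likewise 9 and none with ortho IL-2, with median log2 changes of 0.16 and 0.17. Ppp5c, a phosphatase bound to the complex, rose by 0.60 and 0.68, Fkbp4 by the values above, Hsp90ab1 by 0.39 and 0.36, and Stip1, which links HSP70 to HSP90, by 0.26 and 0.21. The inducible Hsp90aa1 was not called (0.08 and 0.02). On log2(RPKM + 1) 13 and 14 of the 16 rose, and in the fit with the covariate 5 and 3 did, with none called lower in either setting. Of 18 coregulators, 5 rose and 4 fell with WT IL-2, and 6 rose and 4 fell with ortho IL-2, shares near those over all genes. Ncoa3, a coactivator, rose by 0.61 and 0.62, and Smarca4, the motor of a chromatin remodelling complex, by 0.36 and 0.42. Ncoa2 fell by 0.30 and 0.33 and the corepressor Nrip1 by 0.37 and 0.38 on the log2 scale, 4 calls that were lost on the RPKM scale. The coregulators' median changed sign with GC offsets, from 0.06 and 0.09 to -0.013 and -0.018.

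Of the genes of steroid supply and related receptors, 7 of 17 passed the filter. Nr3c2, the mineralocorticoid receptor, had 17 to 54 reads a library, and Hsd11b2, which inactivates corticosterone, 0 to 9. Of the 7, 3 rose and 2 fell in both comparisons (71.4% called in each, against 47.9% and 56.0% of all tested genes). Esr1, a related receptor among the 7, passed the filter only through libraries given IL-2. It had at most 0.763 RPKM in the controls and at most 1.08 with IL-2, so its place in this list is no support for a direction. Cyp11a1, the first enzyme of steroid synthesis from cholesterol, rose from 15.5 to 32.6 and 33.4 CPM (log2 change 1.08 and 1.11). The efflux pump genes Abcb1a and Abcb1b, whose product exports glucocorticoids among other compounds, fell by 0.82 and 0.79 with WT IL-2 and by 0.87 and 0.83 with ortho IL-2 on the log2 scale. Reads of these closely similar copies may be shared, so the split between them is uncertain.

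Other genes known to be induced by glucocorticoids did not move together. Of 33 listed, 28 were tested, and 7 rose and 13 fell with WT IL-2 (median log2 change -0.15), against 9 and 12 with ortho IL-2 (-0.15). On the log2(RPKM + 1) scale the median was 0.06 and 0.10, so its sign depends on the scaling, which on that scale moves the median of all genes to 0.19 and 0.25. Tgm2, a transglutaminase, rose most, by 3.51 and 3.53. Bcl6, a transcriptional repressor, fell by 2.15 and 2.36, Sesn1, which restrains mTORC1, by 1.31 and 1.26, and Bcl2l11, which encodes the death protein BIM, by 1.20 and 1.18 on the log2 scale. Zbtb16, in other cells a sharp readout of the receptor, had 22 to 74 reads and was not tested.

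Of 25 genes known to be repressed by glucocorticoids, 6 were tested. Of these, 2 rose and 2 fell with WT IL-2 against 2 and 1 with ortho IL-2. With WT IL-2 66.7% of the list was called, against 47.9% of all tested genes. With ortho IL-2 the called share of the list was below the 56.0% of all tested genes. Tnf rose by 2.75 and 2.87 and Ifng by 1.07 and 1.44, both inflammatory cytokines. Ifng passed the filter only through the libraries given IL-2 (at most 0.620 RPKM in the controls, 1.03 to 1.93 RPKM with IL-2), so its presence among the genes that rose is no support for a direction. Cd40lg, the helper ligand, fell by 0.66 and 0.63 on the log2 scale. Icam1, an adhesion molecule, was called lower with WT IL-2 (-0.20) and not with ortho IL-2 (-0.08), though with GC offsets it was called lower with both. On the RPKM scale its values were positive, at most 0.0086 and 0.19, and not called. The median of all genes also moved up there, to 0.19 and 0.25 on log2(RPKM + 1). Without the filter on low values the WT call of Icam1 was lost too. The forms of IL-2 did not differ by the test (adjusted p = 0.909 by edgeR).

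**Figure D4:**
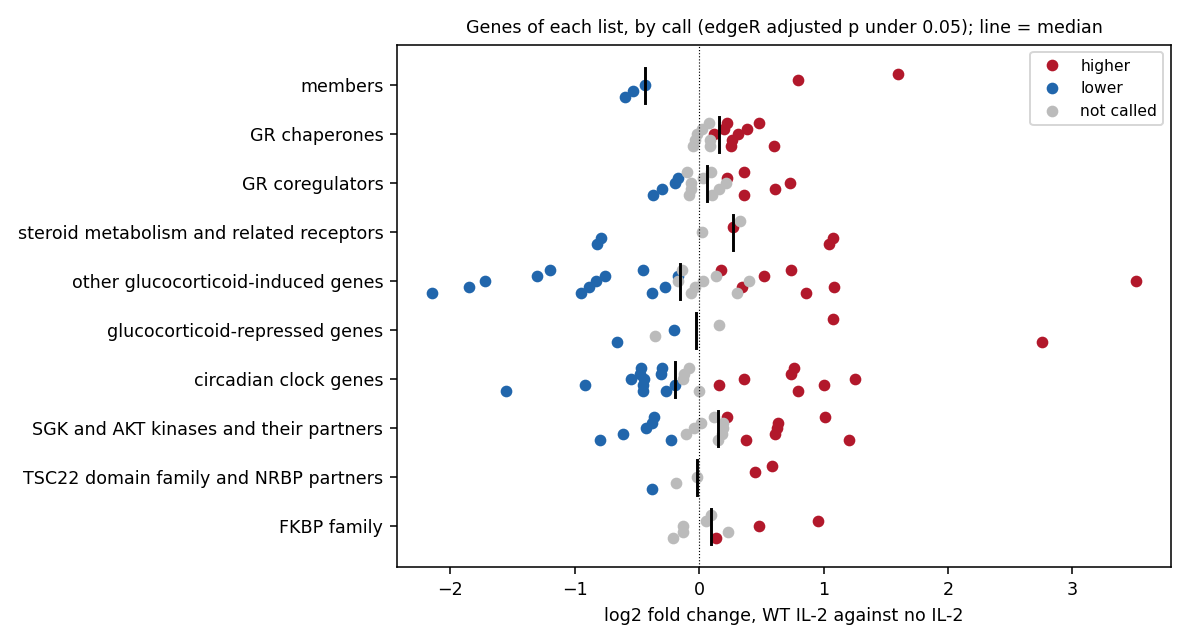
Log2 fold change of every tested gene of each list for WT IL-2 against no IL-2, with 1 point a gene, coloured by call, and a line at the list's median. The chaperones lie mostly above 0 with a median of 0.16, while the other glucocorticoid-induced genes spread from Bcl6 at -2.15 to Tgm2 at 3.51.

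The clock genes around Per1 split as its own family did. Of 26 listed, Per1 apart, 23 were tested, and 7 rose and 12 fell with WT IL-2 against 6 and 10 with ortho IL-2. That is 82.6% and 69.6% called, against 47.9% and 56.0% of all tested genes. Most called genes of the list thus fell, while the 4 with the smallest p with WT IL-2, Per2, Per3, Dbp and Nfil3, rose. Median log2 changes were -0.20 and -0.20. The median was 0.02 and 0.04 on the log2(RPKM + 1) scale, where 7 rose and 5 fell with WT IL-2 and 9 rose and 5 fell with ortho IL-2. On that scale the median of all tested genes was 0.19 and 0.25, and their calls split mostly upward, as given above. Dbp, an output gene driven by CLOCK and BMAL1, rose by 1.25 and 1.25 (16.0 to 38.0 and 37.6 CPM), and Nfil3, a repressor that competes with it, by 0.80 and 0.81. Bhlhe41, a repressor named here after its values were seen, fell by 1.55 and 1.76 on the log2 scale, and passed the filter only through the controls (1.02 to 1.09 RPKM, at most 0.476 with IL-2).

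Partners of SGK1 also moved in both directions. Of 22 kinases, regulators and substrates listed, 21 were tested, and 7 rose and 6 fell with WT IL-2 against 9 and 6 with ortho IL-2 (medians 0.15 and 0.06). That is 61.9% and 71.4% called, against 47.9% and 56.0% of all tested genes. On log2(RPKM + 1) the split was 13 and 2 with WT IL-2 against 14 and 3 with ortho IL-2, on a scale where all genes also split mostly upward, as given above. Nedd4l, the ubiquitin ligase that SGK1 inhibits, rose from 67.4 to 155 and 152 CPM (log2 change 1.21 and 1.17, adjusted p = 1.69e-08 and 2.02e-08 by edgeR). Foxo1, a transcription factor held out of the nucleus by AKT and SGK1, fell from 591 to 340 and 330 CPM (-0.80 and -0.84, adjusted p = 5.52e-07 and 3.90e-07 by edgeR). Slc9a3r1, a scaffold of membrane transporters, rose by 1.01 and 1.07, and the kinase gene Wnk1 by 0.61 and 0.54.

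The smaller lists hold few genes. Among the 5 TSC22 relatives and their NRBP partners, 2 rose and 1 fell in each comparison (60% called, against 47.9% and 56.0% of all tested genes), and the call of Nrbp2 with WT IL-2 (-0.38, adjusted p = 0.0326 by edgeR) was lost in 11 of 18 alternatives. In the FKBP family 9 of 15 were tested, and 3 rose with WT IL-2, 4 with ortho IL-2 and none fell (33.3% and 44.4% called). Fkbp1a, the immunophilin FKBP12 bound by rapamycin and tacrolimus, rose from 93.2 to 181 and 184 CPM (log2 change 0.96 and 0.98). Fkbp8 was at 0.23 (not called) and 0.39. Offsets for GC content removed its call and brought the family's median from 0.09 and 0.12 to -0.009 and -0.049.

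**Figure D5:**
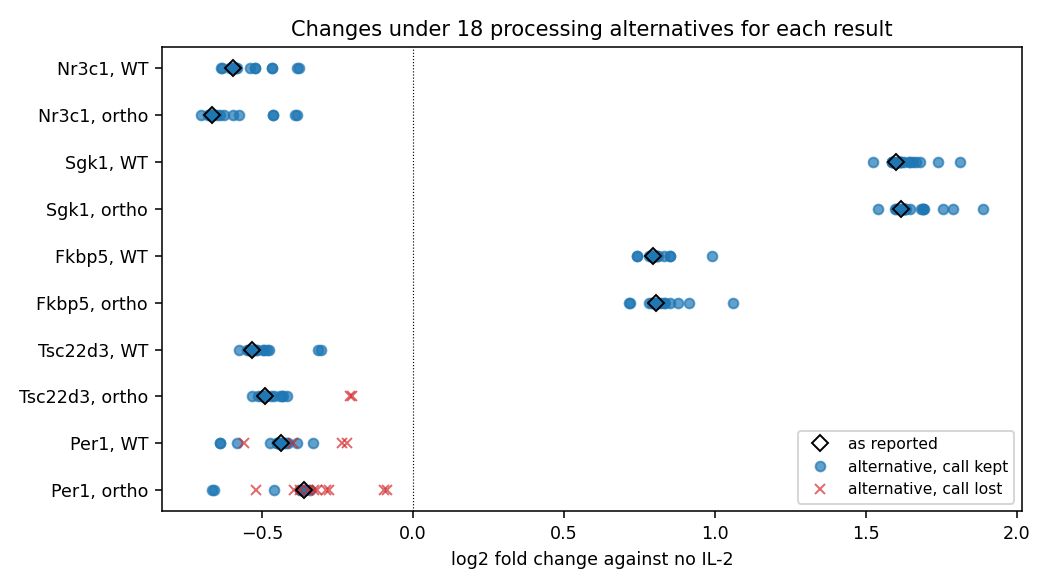
Log2 fold change of each member against no IL-2 under the reported setting and its 18 alternatives, with calls and lost calls marked. Sgk1, Fkbp5 and Nr3c1 are called under all 18 in both comparisons, and the lost calls belong to Per1 and, on the RPKM scale with ortho IL-2, to Tsc22d3.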

How the data were processed

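Messenger RNA libraries of 3 groups of 3 were analysed. Each table deposited by the authors holds, per its header, raw read counts and RPKM values for 31682 RefSeq transcripts. The RPKM values deposited by the authors divide by a library number that also counts reads outside these transcripts. The mm10 build, edgeR, bedtools 2.25.0, SAMtools 0.1.8, TopHat2 and Bowtie2 are named in the submitters' processing notes; what each did, which counter was run and whether strand counted is not given in the sources used here. For the 4343 symbols with several transcripts the most-read one was taken. Counts of all 9 libraries were fitted with edgeR 4.0.16 in R 4.3.3 (TMM, quasi-likelihood, filter of RPKM 1 in 3 libraries, 10702 genes, threshold 0.05), after the script was tested on simulated data. CPM values are TMM-scaled, except those of the cell type markers, the floor of 3 reads and the separate Tsc22d1 transcripts. These are scaled to all reads in genes without TMM. Alternatives used DESeq2 1.42.0, limma 3.58.1 on log2(RPKM + 1) or log2(RPKM + 0.1), other scalings, no filter, summed transcripts, a replicate block, GC offsets, a covariate, fits of only the groups compared, and each library left out.

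The members and lists were chosen with earlier results of these data known, so counts over them are descriptions. By rule, genes named are the members, their family relatives, and the 3 most alike genes for each member. The rule also takes up to 4 genes of each list with the smallest p with WT IL-2. A few more fall outside this rule, named for what they encode, for how they passed the filter or as the lowest clock gene. These were named after their values were seen. Of the 52 genes named by the rule beside the members, 24 overlap another annotated gene, 11 on the same strand, and are uncertain to that extent. Coordinates and overlaps come from GENCODE M21 on GRCm38, and promoter sequences from RefSeq on GRCm38.p6. A few genes of the lists, although counted, are not reported here by name.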

Additional observations from a re-analysis of the deposited data

How the results depend on the processing

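Over the 15 member results (5 genes in 3 comparisons), 254 of 270 alternatives kept the side of the threshold, 16 lost a call, and none gained one or changed the direction of a called value. In 12 of the 254 the sign of an uncalled difference between the forms changed (Fkbp5 4, Per1 4, Nr3c1 2, Sgk1 2). The losses were those of Per1 and of Tsc22d3 with ortho IL-2. For Per1 the log2 change with WT IL-2 was -0.22 on log2(RPKM + 1), -0.24 on log2(RPKM + 0.1) and -0.56 with the covariate, and -0.58 to -0.33 when each library was left out. With ortho IL-2 it was -0.087 and -0.095 on these RPKM scales, -0.33 without TMM, -0.29 without the filter and -0.52 with the covariate, and -0.46 to -0.28 when each library was left out. For Tsc22d3 with ortho IL-2 it was -0.20 and -0.21 on the RPKM scales. The cause was not tested. With the covariate, 2128 genes were called in the WT comparison and 1572 in the ortho comparison, against 5123 and 5991. The covariate differs between the groups, so its part and that of IL-2 cannot be told apart. Why fewer genes were called was not tested. On log2(RPKM + 1), where the median gene moved to 0.19 and 0.25, 83.7% and 85.9% of called genes were higher, against 52.2% and 51.0% as reported. That alternative differs in divisor, scaling, transform and test at once, and the cause was not tested.

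For libraries of the same number, the correlations of their deviations from the group means ranged from -0.58 to 0.36 over the pairs. For libraries of different numbers they ranged from -0.45 to 0.54. Deviations from a mean of 3 libraries are tied to each other, so these values cannot settle whether the numbers mark pairs. The numbers are taken as names. A replicate block gave 4789 and 5652 genes called and 0 between the forms, and changed no member's call (Per1 -0.45 and -0.37, Sgk1 1.61 and 1.62). Depth did not bring any member near the floor of 3 reads.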

Other observations

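The Tsc22d1 transcripts moved in different directions. The long transcript, of 4588 bases, stood at 14.8 to 15.1 CPM, here the reads scaled to all reads in genes without TMM, in the controls, 20.9 to 26.2 with WT and 21.1 to 25.1 with ortho IL-2. A short transcript of 1731 bases stood at 7.42 to 8.12, 4.45 to 5.28 and 4.64 to 4.93 in the same groups, and a second of 1639 bases at 6.51 to 7.53, 4.32 to 4.98 and 4.32 to 4.75. In all 3 transcripts the no IL-2 libraries did not overlap with those given IL-2. The long transcript was higher and the short ones lower after IL-2. Such a lack of overlap with the controls was common, at 58.8% of tested genes with WT and 66.1% with ortho IL-2. The short transcripts share reads with each other, and the difference between long and short was not tested. A single fold change for Tsc22d1 therefore depends on the transcript taken.

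The promoter windows put the palindrome at a start of Sgk1 that few reads separate from the others. The window of the transcript taken held none of the motifs searched. That transcript was picked for having the most reads, so its having the most extra reads was fixed in advance and says nothing of which start was used. All its reads were 392 to 878 a library without IL-2, 2632 to 3326 with WT and 1782 to 4890 with ortho IL-2, and raw sums follow that level. Its extra reads were 149 and 200 in the WT and ortho groups against 38 without IL-2. WT IL-2 replicate 1 gave 96 and ortho IL-2 replicate 3 gave 112 of these, and without them the sums were 53 and 88. Where in the transcript these reads lie is not in the tables, the libraries differ in depth, and the difference was not tested.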
